A study of Mus musculus with 22 samples.

Results

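GABA-A receptors are the chloride channels through which the transmitter GABA acts fastest in the brain, and the measurements below concern 7 of their subunit genes, Gabra2, Gabra3, Gabra4, Gabra5, Gabrb1, Gabrb2 and Gabrg1. Members were found by name: every probe whose gene name in the scanner files is one of these symbols was taken, with each probe kept apart. This gave 12 probes of 41174 on the array. Gabra2 and Gabra3 have 3 probes each, Gabra5 has 2, and the other subunits have 1 each. Of the 12, 11 were well above background in at least 50% of the channels at both ages and were tested. The remaining one, A_52_P907953 of Gabra3, was well above background in 1 of 28 channels at E15 and in 2 of 16 at P1, and is described as not well above background.

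The RNA came from frozen slices of whole mouse brain, and each of 22 arrays carried the RNA of 1 animal labelled knockout for Agtr2 and 1 control animal, in Cy3 and Cy5. Agtr2, an X-linked gene, encodes the type 2 receptor for the hormone angiotensin II. At embryonic day 15 (E15) there were 8 knockout replicates and 6 control animals on 14 arrays, and at postnatal day 1 (P1) there were 4 and 4 on 8 arrays. Strain, sex and the design of the deletion are not given in the sources used here. E15 knockout replicates 1, 4 and 7 are linked through controls, since replicate 1 shares 1 animal with replicate 4 and another with replicate 7. Replicates 2, 3 and 8 are linked likewise through replicate 2, and replicates 3 and 4 have 1 array each. The P1 controls carry no number of their own and were each paired with the knockout replicate of their arrays.

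Each receptor is a ring of subunits in which alpha and beta subunits together form the GABA site, and a gamma subunit next to an alpha subunit forms the site for benzodiazepines. The alpha subunit sets much of the receptor's sensitivity and kinetics and helps to decide whether it sits at synapses or outside them. In rodent brain the make-up of the receptor changes around birth, and in immature neurons, which hold more chloride than mature ones, GABA can depolarize the cell. In RNA of whole brain, fewer cells of a type and less RNA per cell cannot be told apart.

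The 7 genes lie in 4 groups of GABA-A subunit genes in the RefSeq annotation (GRCm38.p6). On chromosome 5 the order is Gabrg1, Gabra2, Gabra4, Gabrb1. Gabra5 lies next to Gabrg3 on chromosome 7, Gabrb2 next to Gabra6 on chromosome 11, and Gabra3 between Gabre and Gabrq on the X chromosome. The gene models of Gabra4 and Gabrb1 share 388 bases. The probes are 60 bases long and are placed in the files on a build that they do not state. On chromosome 5 these positions are 69532849 to 69532908 for Gabrg1, 69742463 to 69742522, 69739692 to 69739751 and 69740502 to 69740561 for Gabra2 (A_51_P417507, A_52_P336171 and A_52_P446146), 70350952 to 70351011 for Gabra4 and 70918054 to 70918113 for Gabrb1. The Gabra5 probes lie on chromosome 7 at 51761733 to 51761792 (A_51_P151316) and 51680505 to 51680564 (A_52_P143037), and the Gabrb2 probe on chromosome 11 at 42381530 to 42381589. The Gabra3 probes are on chromosome X at 67094474 to 67094533, 67161864 to 67161923 and 67146807 to 67146866 (A_52_P264550, A_52_P364645 and A_52_P907953). Which exon or untranslated region a probe lies in was not determined, since no annotation of that build was used here.

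Gabrg1 and Gabra2 are neighbours, and the bases before their starts differ much in composition, while Gabrb2 is the member whose own probe did not rise with age. The 250 bases before the annotated start of each, from RefSeq (GRCm38.p6), are shown for that reason, 5′ to 3′ on the strand of the gene. Capitals mark a match, on either strand, to TATAAA, to the cAMP response element TGACGTCA, to the EGR family site GCGNGGGCG or to the GC box GGGCGG.
Gabrg1, chr5:70842618-70842867, minus strand: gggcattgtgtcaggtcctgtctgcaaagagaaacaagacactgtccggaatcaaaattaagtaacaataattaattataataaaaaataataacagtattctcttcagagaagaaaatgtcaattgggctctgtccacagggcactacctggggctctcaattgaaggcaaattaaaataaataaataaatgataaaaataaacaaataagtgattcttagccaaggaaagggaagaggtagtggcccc
Gabra2, chr5:71095850-71096099, minus strand: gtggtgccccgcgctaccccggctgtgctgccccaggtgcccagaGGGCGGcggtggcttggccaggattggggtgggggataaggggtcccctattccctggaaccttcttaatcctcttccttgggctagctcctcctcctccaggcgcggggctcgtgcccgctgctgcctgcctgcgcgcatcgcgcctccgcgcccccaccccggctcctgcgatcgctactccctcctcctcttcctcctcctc
Gabrb2, first of 3 starts, chr11:42420190-42420439, plus strand: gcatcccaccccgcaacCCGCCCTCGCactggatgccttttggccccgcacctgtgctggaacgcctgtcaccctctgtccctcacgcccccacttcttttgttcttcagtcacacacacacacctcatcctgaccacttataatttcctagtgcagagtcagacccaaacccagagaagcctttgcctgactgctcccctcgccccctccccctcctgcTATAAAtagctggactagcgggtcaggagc
The Gabrg1 window holds 1 CpG and has a GC content of 35.6%, and none of the motifs was found in it. The Gabra2 window holds 18 CpG at a GC content of 70% with 1 GC box, 205 bases before the start. The first Gabrb2 window holds 8 CpG at 58.8%, with TATAAA 30 bases before the start and a GC box that overlaps an EGR family site at 233 and 232 bases. Over all 32851 promoter windows of that length the median was 6 CpG and 52.4% GC, and 12.4% held TATAAA, 1.55% TGACGTCA, 4.7% GCGNGGGCG and 32.7% GGGCGG. The 2 Gabra3 windows overlap and share 1 match to TATAAA, which lies on the strand opposite to the gene. The Gabra4 window holds 2 GC boxes, and the windows of Gabra5, Gabrb1 and the other Gabrb2 starts hold none of these motifs. A match is a run of letters, not a bound site.

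Most of these subunit RNAs were more abundant at P1 than at E15 in control animals. The rise was largest for Gabrg1, Gabra4 and Gabrb1, at 2.34-, 2.09- and 1.89-fold, and the Gabrb2 probe did not pass the test. Levels are log2 intensities after background correction with an added offset of 50 and normalization over all arrays, 1 value per animal, and an adjusted p under 0.05 over all probes in limma was called. By that rule 7 of the 11 probes, from 6 of the 7 genes, rose, against 17.3% of all 36315 probes tested. In the same 7 probes every P1 control lay above every E15 control, which held for 10.0% of all probes. The median difference over the 11 probes was 0.56, and that over all probes -0.02. The offset draws dim probes toward each other, so these folds understate the change of a dim probe. With the scanner's processed signals, quantile normalized, the differences were 1.55 for Gabra4, 1.53 for Gabrb1, 1.64 for Gabrg1, 0.96 for Gabra2 A_51_P417507, 0.84 for Gabra3 A_52_P264550, and 1.54 and 0.68 for Gabra5.

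**Figure D1:**
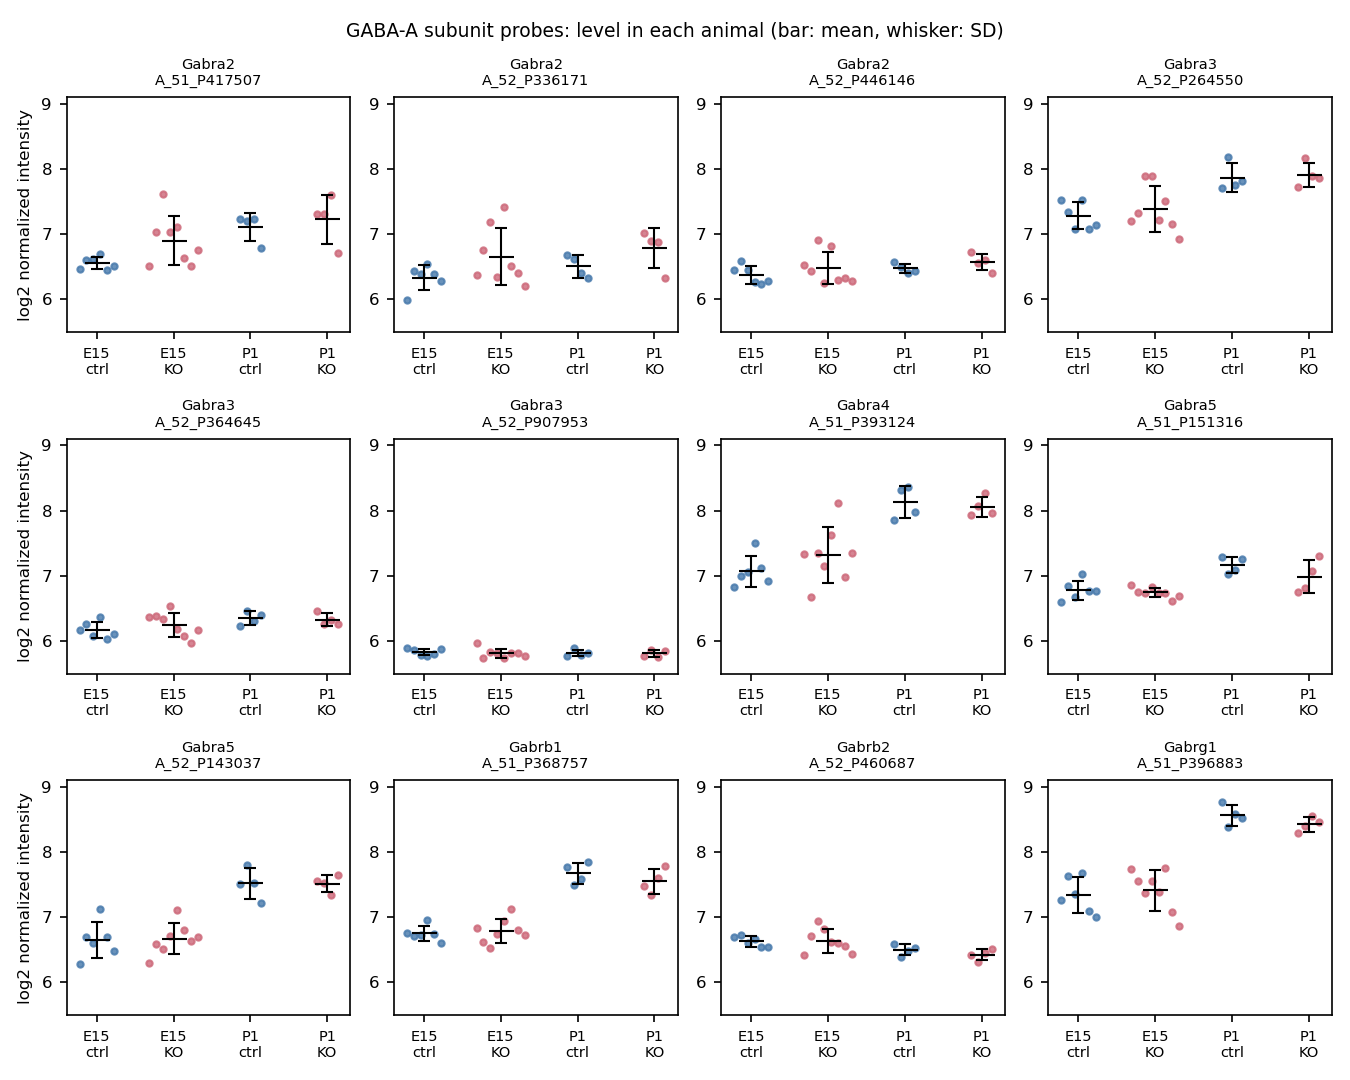
Log2 normalized intensity of each of the 12 probes (vertical axis, same scale in all panels) in each animal of the 4 groups, with the mean and SD of the group. P1 animals sit above E15 animals for Gabrg1 and Gabrb1 in both genotypes, and Gabra3 A_52_P907953 stays between 5.74 and 5.96 in all groups.

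Among the alpha subunits, Gabra4 rose most. It encodes a subunit found mainly in receptors outside synapses, often together with the delta subunit. Its level in E15 controls ran from 6.83 to 7.50 with a median of 7.03, and the P1 controls had 7.86, 8.32, 8.37 and 7.98. The groups did not overlap, and the difference was 1.06 (SE 0.14, adjusted p = 0.000308, n = 6 and 4, limma).

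Gabra5 encodes a subunit of extrasynaptic receptors that is abundant in the hippocampus, and both of its probes rose, by different amounts. At A_52_P143037 the E15 controls ran from 6.29 to 7.12 (median 6.65) and the P1 controls had 7.52, 7.81, 7.53 and 7.22, a difference of 0.87 (SE 0.15, adjusted p = 0.00177). At A_51_P151316 the E15 controls ran from 6.60 to 7.02 (median 6.77) and the P1 controls had 7.28, 7.03, 7.09 and 7.25, a difference of 0.38 (SE 0.09, adjusted p = 0.00811). The highest E15 animal at both probes was control 4, and the gap between it and the lowest P1 control was 0.10 at A_52_P143037 and 0.0051 at A_51_P151316. The smaller rise was not past the threshold in Cy5 channels alone (adjusted p = 0.0559) or with the replicate number as a block (adjusted p = 0.0653). Those numbers were not taken to pair animals across the ages.

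Gabra3 and Gabra2, subunits that are abundant in the developing brain, were called at some of their probes and not at others. Gabra3 A_52_P264550 ran from 7.08 to 7.53 in E15 controls (median 7.24), and the P1 controls had 7.70, 8.19, 7.75 and 7.82. P1 lay above E15 throughout, with a difference of 0.58 (SE 0.13, adjusted p = 0.00608). The call was lost when arrays were centred on their median in place of quantile normalization of their average intensities, called Aquantile (0.39, adjusted p = 0.0747) and with the replicate number as a block (adjusted p = 0.0571). At Gabra3 A_52_P364645 the difference was 0.18 (SE 0.08, adjusted p = 0.111), with 0.22 and an adjusted p = 0.0386 without E15 control 4. Gabra3 A_52_P907953 had means of 5.83 at E15 and 5.81 at P1.

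Gabra2 A_51_P417507 ran from 6.45 to 6.70 in E15 controls (median 6.56), and the P1 controls had 7.23, 7.21, 7.23 and 6.80. Control 4 was the low P1 animal and still lay above every E15 control. The difference was 0.56 (SE 0.10, adjusted p = 0.00154). The other Gabra2 probes did not pass the test. A_52_P336171 had a difference of 0.17 (SE 0.11, adjusted p = 0.269) and A_52_P446146 one of 0.10 (SE 0.08, adjusted p = 0.369), and their E15 and P1 controls overlapped.

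The member probes of the beta subunits differed, while other probes assigned to Gabrb2 rose as Gabrb1 did. Gabrb1 rose and had the lowest adjusted p of the members. Its E15 controls ran from 6.60 to 6.96 (median 6.74) and its P1 controls had 7.77, 7.50, 7.58 and 7.85, so that 0.54 separated the highest E15 from the lowest P1 animal. The difference was 0.92 (SE 0.09, adjusted p = 3.06e-05). Gabrb2, a partner of alpha subunits in many mature receptors, ran from 6.54 to 6.73 in E15 controls (median 6.64) and had 6.59, 6.39, 6.48 and 6.54 at P1. The groups overlapped and the difference was -0.13 (SE 0.06, adjusted p = 0.149). Another 2 probes, A_51_P227679 and A_52_P91563, carry a RIKEN name in the files and resolve to Gabrb2 in the RefSeq table, and so are not members by name. Their controls rose by 0.75 (SE 0.13, adjusted p = 0.00164) and 0.63 (SE 0.19, adjusted p = 0.0251). The probes assigned to Gabrb2 differed in their calls.

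Gabrg1, the only gamma subunit among the members, showed the largest difference. The E15 controls ran from 7.01 to 7.68 (median 7.31) and the P1 controls had 8.76, 8.38, 8.59 and 8.53. The lowest P1 control lay 0.70 above the highest E15 control. The difference was 1.23 (SE 0.14, adjusted p = 0.000103), and the probe is printed at 10 spots of each array, where the other members have 1.

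The animals labelled knockout, which share their arrays with the controls, rose at 5 of 11 probes, where 14.5% of all probes did. Gabrg1 rose by 1.01 (SE 0.15, adjusted p = 0.000496), Gabra5 A_52_P143037 by 0.85 (SE 0.12, adjusted p = 0.000363), and Gabrb1 by 0.76 (SE 0.11, adjusted p = 0.000401). In these 3 probes every P1 knockout animal lay above every E15 knockout animal, against 6.59% of all probes. Gabra4 rose by 0.74 (SE 0.21, adjusted p = 0.0203), with E15 replicate 6 at 8.11 above the P1 animals 1, 2 and 4 at 7.93, 8.07 and 7.96. Gabra3 A_52_P264550 rose by 0.52 (SE 0.18, adjusted p = 0.0448), and that call was lost under 15 of 20 alternatives, among them leaving out E15 replicate 1, 2, 5, 6, 7 or 8 or any of the P1 animals. The Gabra4 call was lost in Cy5 channels alone, under median centring, and without P1 animal 2 (adjusted p = 0.0510) or 3 (adjusted p = 0.0687). Gabra2 A_51_P417507 had 0.33 (SE 0.21, adjusted p = 0.276), with an E15 knockout range of 6.52 to 7.62 where the controls ran from 6.45 to 6.70. It was called in Cy3 channels alone (0.64, adjusted p = 0.0146), and Gabra5 A_51_P151316 (0.24, adjusted p = 0.0773) was called without P1 animal 1 (0.32, adjusted p = 0.0331).

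**Figure D2:**
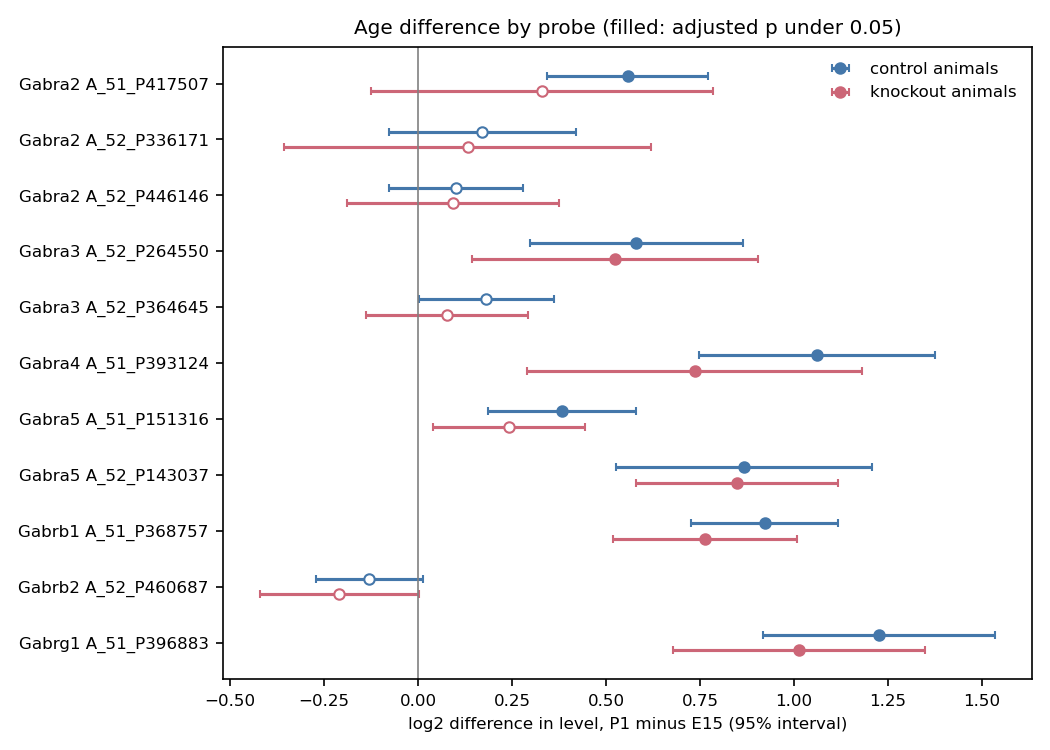
Difference in log2 level between P1 and E15 (horizontal axis) for the 11 tested probes in control and knockout animals, with the 95% interval of the fit and filled points where the adjusted p was under 0.05. Gabrg1 stands farthest from 0 in both genotypes (1.23 and 1.01), and Gabrb2 lies at -0.13 and -0.21.

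The ages were scanned on different days and read with different releases of the scanner software (8.1.1.1 at E15 and 8.5.1.1 at P1), so age and batch cannot be told apart in these level comparisons. Cell-type markers moved with age as well. Neuron markers (11 of 12 on the array, all above the filter) had a mean level of 9.83 to 10.43 in E15 controls and 10.81 to 10.87 in P1 controls. Astrocyte markers (8 of 8) ran from 7.98 to 8.26 and from 8.87 to 9.26, and erythroid markers (3 of 5 above the filter) from 9.26 to 10.34 and from 7.91 to 8.41. Markers of the oligodendrocyte lineage (7 of 7) ran from 7.19 to 7.79 and from 7.98 to 8.23, and those of meninges and fibroblasts (8 of 8) from 8.28 to 10.77 and from 7.81 to 8.18. The levels of the other 6 lists (radial glia, microglia, endothelium, skeletal muscle, forebrain and hindbrain) overlapped between the ages. The part of these markers in the subunit differences was not tested. Under median centring the share of upward calls over all probes was 41.2% in controls and 45.9% in knockout animals, where it was 52.6% and 57.8% with Aquantile, and with outlier spots kept it was 43% in controls and 47.4% in knockout animals.

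Genes around the receptor are given for context. Of the other GABA-A subunits, 11 of 12 were on the array, with 1 probe a gene tested, and 2 rose and 2 fell in controls from E15 to P1 (median 0.02). Gabrr1 and Gabre fell by 0.75 (SE 0.16, adjusted p = 0.00454) and by 0.43 (SE 0.12, adjusted p = 0.0187). The Gabre fall was at 1 of its 2 probes, and the other had 0.0037 and was not called. The Gabrr1 call was lost in Cy5 channels alone (adjusted p = 0.0610), and that of Gabre in Cy3 channels alone (adjusted p = 0.0842), with the replicate block (adjusted p = 0.0599) and without P1 control 4 (adjusted p = 0.0530).

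Of 28 genes for assembly, clustering and trafficking of the receptor, 13 rose and 5 fell (median 0.19). Gphn, the scaffold gephyrin of inhibitory synapses, rose by 1.63 (SE 0.10, adjusted p = 3.14e-06) at 1 of its 4 probes, and the others were not called. Nsf, a fusion factor in membrane trafficking, rose by 1.54 (SE 0.21) at 1 of its 2 probes, with 0.08 at the other, Prkcb, a protein kinase C, by 1.44 (SE 0.12) and Slitrk3, an adhesion protein of inhibitory synapses, by 0.55 (SE 0.09), with adjusted p from 1.09e-05 to 0.000977.

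Of 16 genes for GABA synthesis, transport and the chloride gradient, 6 rose and 4 fell (median 0.20). Gad1, which makes GABA, rose by 1.16 (SE 0.15, adjusted p = 0.000200), and Abat, which breaks it down, by 1.22 (SE 0.20, adjusted p = 0.00113, with its 3 probes from -1.03 to 5.11). Dlx2, a transcription factor of GABA neuron precursors, fell by 1.62 (SE 0.28, adjusted p = 0.00147). In knockout animals 3 of the 11 other subunits rose and 2 fell, 5 of the 28 rose, and 3 of the 16 rose and 1 fell. Between genotypes no gene of these lists was called at either age.

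**Figure D3:**
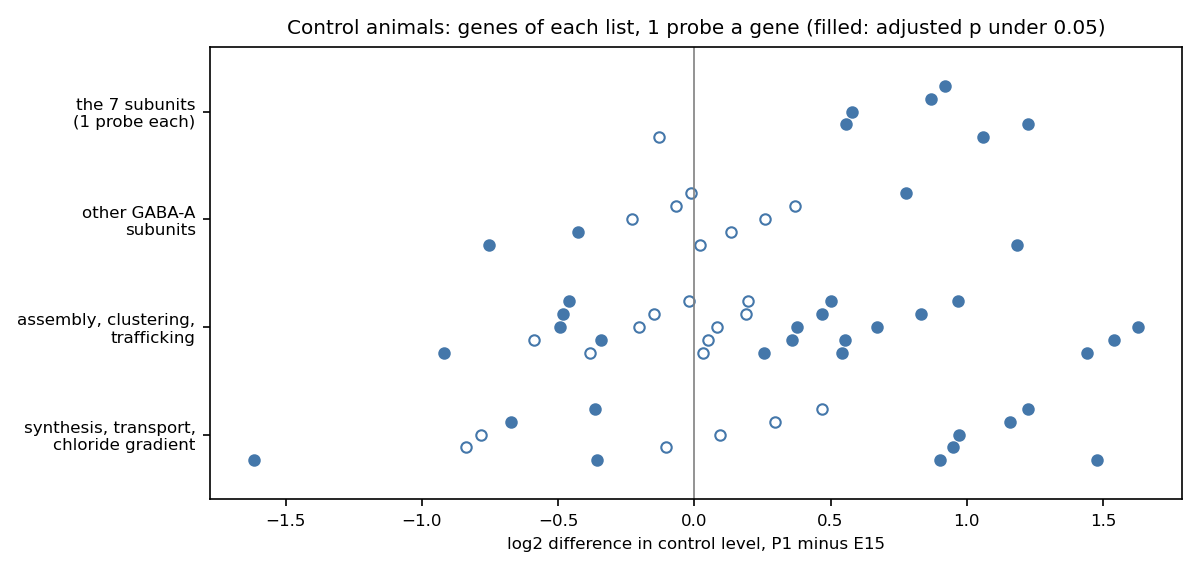
Difference in log2 level between P1 and E15 control animals (horizontal axis) for the genes of 4 lists, 1 probe a gene, with filled points where the adjusted p was under 0.05. Of the 7 members 6 are filled and lie above 0, and the other lists hold filled points on both sides of 0.

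Knockout and control brains were then compared within arrays. At E15 no member differed past the threshold, and the largest changes, all upward, were at 2 of the 3 Gabra2 probes and at the Gabra4 probe. Limma called 0 of 34175 probes (0%), with 2203 at an unadjusted p under 0.05, which is 6.45%. Of the 11 member probes, 3 had an unadjusted p under 0.05, and each had an adjusted p = 0.759. Changes are log2 of knockout over control, and 10 of the 11 lay above 0, with a median of 0.09, where 49.3% of all probes did.

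Gabra2 A_51_P417507 had 0.02, 0.50, 0.87, 0.57, 0.41, 0.18, 0.03 and 0.09 in E15 replicates 1 to 8. All 8 lay above 0, as did 0.762% of all probes, and replicates 2 to 5 were the high ones. The change was 0.33 (SE 0.10, 95% interval 0.10 to 0.57, adjusted p = 0.759, above 0 in 8 of 8). A_52_P336171 had 0.18, 0.53, 0.78, 0.44, 0.87, 0.13, 0.13 and -0.31, and its change was 0.35 (SE 0.13, 95% interval 0.05 to 0.65, adjusted p = 0.759, above 0 in 7 of 8). A_52_P446146 had 0.10 (SE 0.07, adjusted p = 0.783) and lay between -0.13 and 0.17 except in replicate 5, at 0.55. The first 2 probes had the same sign in 7 of 8 replicates, with a mean difference of -0.01, and A_51_P417507 exceeded A_52_P446146 by 0.24 on average.

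The Gabra2 values differed between scan days, not in the same direction at all probes. The days hold different replicates, and the part of the scan day was not tested. In the 4 replicates scanned on the third day the changes were 0.49 (A_51_P417507) and 0.48 (A_52_P336171), and in the 4 of the other days 0.18 and 0.20. At A_52_P446146 the third day was the lower one, with 0.05 against 0.14. Replicates 3 and 4, which have 1 array each and a subtracted dye effect, held the 2 highest A_51_P417507 values, and without both the change at that probe was 0.21. With scanner processed signals A_51_P417507 and A_52_P336171 had 0.59 and 0.81, again not past the threshold (adjusted p = 0.723).

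Gabra4 had 0.57, -0.05, 0.16, 0.21, 0.12, 0.99, 0.08 and 0.12 in replicates 1 to 8. Replicates 1 and 6 stood above the others, and 7 of 8 lay above 0. The change was 0.28 (SE 0.11, 95% interval 0.03 to 0.54, adjusted p = 0.759), and without replicate 6 it was 0.19. It was 0.15 on arrays with the knockout in Cy5 and 0.43 with the knockout in Cy3, which fewer replicates have. Over the 6 replicates with both orientations the means were 0.17 and 0.44.

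The other E15 changes of member probes were 0.10 or less. Both tested Gabra3 probes had about 0.1, at 0.09 for A_52_P264550 (SE 0.09, range -0.32 to 0.42) and 0.10 for A_52_P364645 (SE 0.08, range -0.19 to 0.55). Gabra5 had -0.02 (A_51_P151316, SE 0.05) and 0.06 (A_52_P143037, SE 0.05), Gabrb1 0.07 (SE 0.06) and Gabrb2 0.01 (SE 0.06). Gabrg1 had a change of 0.07 (SE 0.14) and the largest SD over replicates of the members (0.42). Its replicates were 0.61, 0.07, -0.35, 0.14, -0.29, 0.67, 0.12 and -0.46, high in replicates 1 and 6 and low in 3, 5 and 8. The 95% intervals of these 7 probes lay within -0.25 and 0.38. The RIKEN-named probes that resolve to Gabrb2 differed from the member probe and were not called. A_51_P227679 had -0.12 (SE 0.17, adjusted p = 0.877, limma) and A_52_P91563 had 0.37 (SE 0.22, adjusted p = 0.762).

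**Figure D4:**
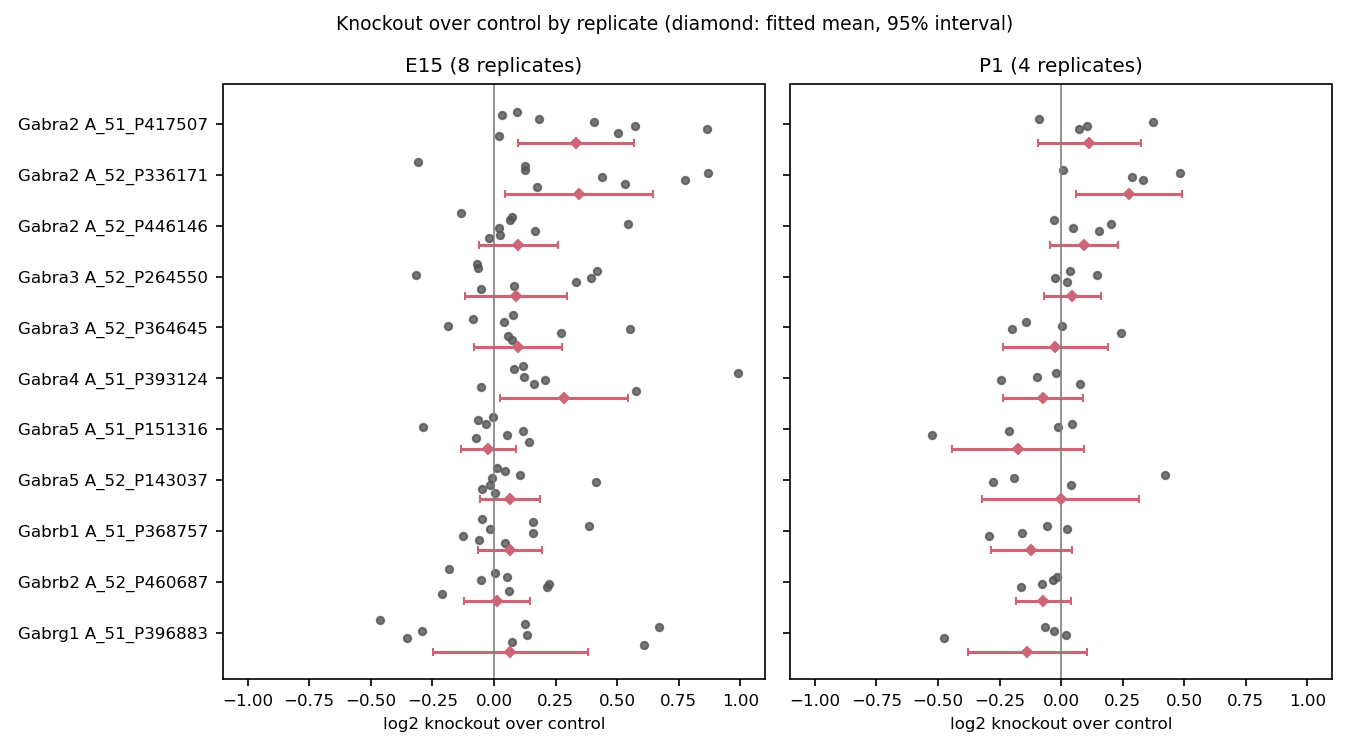
Log2 knockout over control (horizontal axis) of each replicate at E15 and P1 for the 11 tested probes, with the fitted mean and its 95% interval below the points. The E15 replicates of Gabra2 A_51_P417507 lie between 0.02 and 0.87, and those of Gabrg1 between -0.46 and 0.67.

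Markers of tissues around the brain stood apart in some E15 samples. Control 1 and knockout replicate 8 held the highest mean levels of the 8 skeletal muscle markers (11.58 and 10.22, where the group medians were 7.50 and 7.41) and of the 8 markers of meninges and fibroblasts (10.77 and 11.08). Replicate medians of the muscle list ran from -3.65 in replicate 4 to 3.27 in replicate 8, and those of the forebrain list (11 of 12 markers on the array) from -1.53 in replicate 8 to 0.60 in replicate 1. All markers of the muscle and meninges lists passed the filter on both ages. Without replicates 1, 4 and 8, a choice made after the values were seen, Gabra2 had 0.39 and 0.48 at its first 2 probes and Gabra4 had 0.27.

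At P1 the members again showed no called difference. Limma called 0 of 34920 probes (0%), with 3427 at an unadjusted p under 0.05, and 4 of the 11 member probes lay above 0, where 52.4% of all probes did. Gabra2 A_52_P336171 had 0.33, 0.29, 0.48 and 0.0075 in replicates 1 to 4, a change of 0.28 (SE 0.08, 95% interval 0.06 to 0.49, adjusted p = 0.453), and lay above 0 in 4 of 4, as did 10.8% of all probes. Its value was 0.13 with the knockout in Cy5 and 0.43 with the knockout in Cy3, and 0.64 with scanner processed signals (adjusted p = 0.320). A_51_P417507 had 0.07, 0.10, 0.37 and -0.09, with a change of 0.12 (SE 0.08), and A_52_P446146 had 0.09 (SE 0.05). Replicate 3 was the highest and replicate 4 the lowest at all 3 Gabra2 probes.

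The other subunits lay near or below 0 at P1. Gabrb2 was below 0 in 4 of 4 replicates (-0.16, -0.08, -0.03 and -0.02), with a change of -0.07 (SE 0.04, adjusted p = 0.633). The share of all probes below 0 in every P1 replicate was not computed. Gabrb1 had -0.12 (SE 0.06), Gabra4 -0.07 (SE 0.06) and Gabrg1 -0.14 (SE 0.09), the last with -0.48 in replicate 1 and between -0.07 and 0.02 in the others. Gabra5 A_51_P151316 had -0.18 (SE 0.10) and ran from -0.52 to 0.04, and A_52_P143037 had -0.0011 (SE 0.12) and ran from -0.28 to 0.42. Gabra3 had 0.05 (SE 0.05) and -0.02 (SE 0.08). The 95% intervals of the 11 probes lay within -0.44 and 0.49. Of the RIKEN-named probes that resolve to Gabrb2, A_51_P227679 had -0.27 (SE 0.07, adjusted p = 0.414, limma). The other, A_52_P91563, had 0.08 (SE 0.14, adjusted p = 0.890). Median ratios of the P1 neuron markers were -0.44, -0.21, -0.10 and 0.15 in replicates 1 to 4, and those of the forebrain markers 0.61, -0.45, 0.63 and -0.17. Their part in the subunit values was not tested.

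The knockout effect at P1 minus that at E15 was below 0 at all 11 probes and was called at none, and 50.9% of all probes lay above 0. It ran from -0.36 for Gabra4 (SE 0.17, adjusted p = 0.817) to -0.0063 for Gabra2 A_52_P446146, and Gabrb1 had -0.19 (SE 0.09, adjusted p = 0.830). In the lists around the receptor, 5 of 10 other subunits lay above 0 for this difference. So did 9 of 28 genes for assembly, clustering and trafficking and 6 of 16 for GABA synthesis, transport and the chloride gradient. Replicate medians of the neuron markers were above 0 in 5 of 8 at E15 (median 0.05) and 1 of 4 at P1 (median -0.16). Their part was not tested. Limma called 109 of 33191 probes (0.328%), 8 of them upward, and 95 of the 109 had under 3 values at an age. Without P1 replicate 4 the direction of the calls turned, with 164 of 191 upward.

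Dye-swapped arrays repeat the knockout RNA of a replicate. In E15 replicates 1 and 2 the 2 arrays carry different control animals, so that there dye and control animal cannot be told apart. At E15, 41 of 66 pairs of orientations had the same sign (62.1%, against 51.2% over all probes), and at P1 it was 19 of 44 (43.2%, against 50% over all probes). The median absolute difference between orientations was 0.16 at E15 and 0.27 at P1, against 0.18 and 0.18 over all probes. The median absolute ratio of the members was 0.08 and 0.09. A ratio is the mean of the orientations, so its size and their difference are not like measures. Over the 4 E15 replicates with 1 control animal on both arrays, 29 of 44 pairs had the same sign (65.9%). Their median absolute difference was 0.13 and their median absolute ratio 0.11. No share over all probes was computed for these replicates alone. Gabra2 A_52_P336171 kept its sign in 6 of 6 E15 replicates and 3 of 4 P1 replicates, and Gabrg1 in 5 of 6 and 2 of 4. Gabra5 A_52_P143037 kept it in 0 of 6 at E15. Gabra3 A_52_P364645 kept it in 5 of 6 at E15 and in 0 of 4 at P1, where the mean was 0.21 with the knockout in Cy5 and -0.26 with the knockout in Cy3. Gabrg1 replicate 6 had 0.70 and 0.64 and replicate 8 had -0.36 and -0.56 in the 2 orientations.

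**Figure D5:**
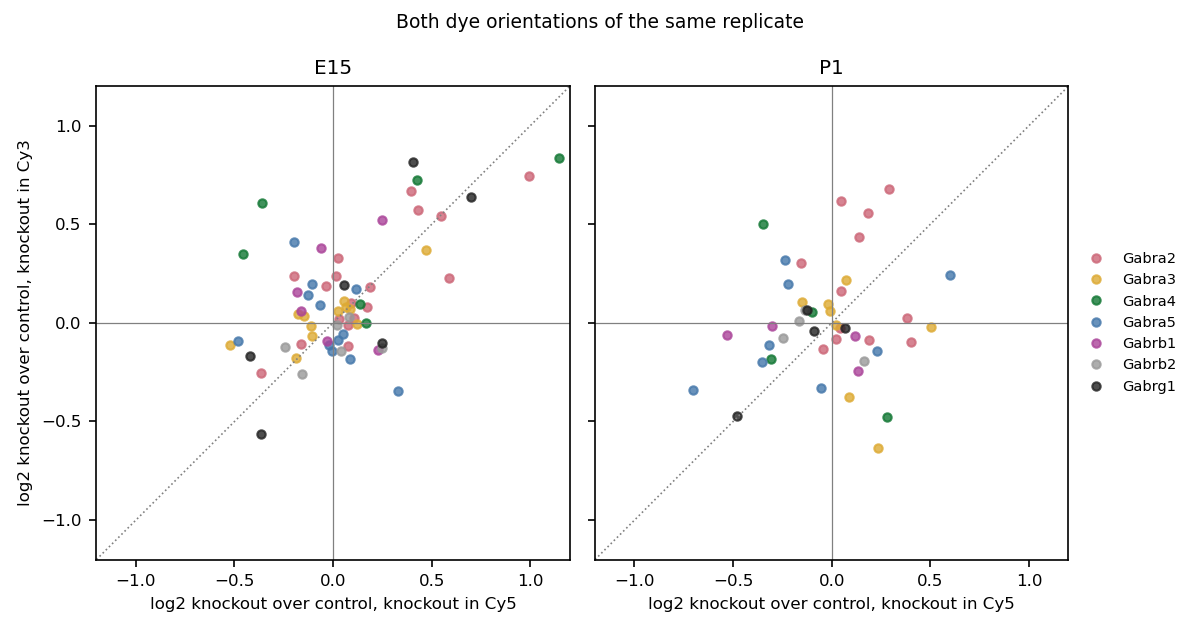
Log2 knockout over control with the knockout in Cy5 (horizontal axis) against the same replicate with the knockout in Cy3 (vertical axis), 1 point for each tested probe and replicate at E15 (66 points) and P1 (44 points), coloured by gene. Points on the dotted line are equal in both orientations.

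Probes of 1 gene shared their sign in part. At E15 the tested Gabra3 probes had the same sign in 6 of 8 replicates and the Gabra5 probes in 4 of 8. At P1 each pair had it in 3 of 4, while the Gabra5 probes differed by up to 0.56 in a replicate.

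Likeness of pattern is given as Pearson's r over the 12 replicate changes, each age centred on its own mean, among 22027 genes and as a description. The replicates share arrays and some control animals. The genes most like the members were Dlg3, a synaptic scaffold protein, for Gabra3 (0.93), Fbxw19 for Gabrb1 (0.94), Slc45a4 for Gabrb2 (0.93), Sowahc and Arid4b for Gabra2 (both 0.94), Zfp874b for Gabra4 (0.86), Ppp2r5e, a phosphatase subunit, for Gabra5 (0.90) and Pik3ip1 for Gabrg1 (0.90), with probes that have no gene symbol left out. Between members the highest values were 0.74 for Gabrb1 with Gabrg1, 0.72 for Gabra2 with Gabrb2 and 0.71 for Gabra3 with Gabrb2, and the lowest was -0.35 for Gabra2 with Gabrg1.

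Facts of the whole series bear on these values as follows. Median spot signals per array were 75.7 to 134 (E15) and 68.8 to 118 (P1), local backgrounds were 39 to 43.5 and 37.5 to 39, and 71.3% to 89.5% of spots were well above background. None of the 462 member spots was saturated and 1 was set missing as an outlier. The Agtr2 probe differed by -0.39 at E15 (adjusted p = 0.804) and by 0.11 at P1 (adjusted p = 0.690). Whether that probe lies in the deleted part of the gene is not known here, and it therefore gives no check of the genotype labels.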

How the data were processed

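Each of 22 arrays (Agilent mouse design) gave a scanner file. Per the file headers, intensity values are mean spot and median local background intensities from Feature Extraction 8.1.1.1 at E15 and 8.5.1.1 at P1. The log10 ratios of red over green that the authors deposited equal the scanner's log ratios within 0.005 and are not turned for dye. P1 files hold accessions as gene names, so names came from the E15 files through the probe name.

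Intensities were corrected with normexp (offset 50) and normalized by loess within arrays in limma 3.58.1 (R 4.3.3). Outlier spots were set missing and spots of a probe averaged. The log2 values computed from these deposited intensities were averaged over the dye orientations of a replicate. E15 replicates 3 and 4, with 1 array each, were corrected by the dye effect averaged over the remaining replicates. That average includes replicates 1 and 2, where dye and control animal cannot be told apart, so control differences can enter it. Shared E15 controls entered as a random block (duplicateCorrelation with statmod 1.5.0, consensus correlation 0.06 estimated on every 8th complete probe). Levels used Aquantile, with 1 level per animal. Probes well above background in at least 50% of channels of an age were tested with lmFit and eBayes, Benjamini-Hochberg adjusted over all probes, at 0.05. The design text calls the animals biological replicates. The model fits alone were tested on simulated log2 values with changes of known size. Background correction, normalization, the dye correction and shared controls were not simulated.

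Every member probe is named. From each of 3 other lists, up to 4 genes with the lowest adjusted p between ages in controls were named, with any called between genotypes, except that some of these genes are not reported here. Another 3 genes per member were ranked by likeness. The members and lists were chosen with earlier results of these data known. Of 11 marker lists, those whose levels did not overlap between the ages in controls, and those that set E15 animals apart, are given with values. Same-numbered samples of the 2 ages correlated between -0.15 and 0.22, so the numbers were not taken to pair them.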

Additional observations from a re-analysis of the deposited data

Results flagged for a closer look

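Among groups of 4 to 10 samples, 3 of 66 (4.55%) held a sample far from the others, where chance gives about 1 in 20. Gabra2 A_51_P417507 had a level of 6.80 in P1 control 4, and the other P1 controls lay between 7.21 and 7.23. Gabra2 A_52_P446146 had 0.55 in E15 replicate 5 for log2 knockout over control, where the others lay between -0.13 and 0.17. Gabra5 A_52_P143037 had 0.41 in E15 replicate 4, which has 1 array, and the others lay between -0.05 and 0.10.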

How the results depend on the processing

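Of the members' control age differences, 193 of 198 values under the alternatives kept direction and side of the threshold. With the replicate number as a block, 6712 probes were called between ages in controls (11935 without it), and 7176 were called in Cy5 channels alone. The numbers were not taken to pair animals across the ages. Under the block, animals whose number occurs at only 1 age add nothing to the estimate. The block also turned Gabra3 A_52_P364645 to -0.075 in knockout animals. Member probes called in knockout animals numbered 3 in Cy5 channels alone, 3 under median centring, and 3 to 5 with 1 animal left out (3 without P1 knockout 2 or 3). At E15 the deposited log ratios called 1 probe, processed signals 1 and the knockout in Cy5 alone 7.

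The 109 probes called for the knockout effect at P1 minus E15 became 0 with deposited log ratios, 0 with processed signals, 0 with the knockout in Cy3 alone, 0 with outlier spots kept, 47 with the knockout in Cy5 alone, 30 in replicates with both orientations, 201 without a filter, and 42 to 191 with 1 replicate left out (62, 51, 72, 62, 66 and 42 without E15 replicates 1, 2, 3, 5, 6 and 7, and 191 without P1 replicate 4). Under 2 alternatives chosen after seeing the data they were 3 (at least 3 values at each age) and 1 (E15 replicates 1, 4 and 8 left out). Causes were not tested.

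No reversed member value was called. With the knockout in Cy3 alone, the difference between ages was 0.0023 (Gabra2 A_51_P417507), 0.12 (A_52_P336171), 0.047 (Gabra3 A_52_P264550) and 0.057 (Gabrb2), the E15 change -0.0066 (Gabra3 A_52_P364645) and -0.11 (Gabrb2), and the P1 change -0.060 (Gabra2 A_52_P446146) and 0.0098 (Gabra5 A_52_P143037). With it in Cy5 alone, the difference was 0.15 (Gabra2 A_52_P446146) and 0.11 (Gabra3 A_52_P364645), the E15 change of Gabrb1 -0.0087, and the P1 change -0.027 (Gabra3 A_52_P264550) and 0.21 (A_52_P364645). The P1 minus E15 difference in level of Gabra2 A_52_P336171 in knockout animals was -0.070 in Cy5 channels. With both orientations, the difference was 0.0035 (Gabra2 A_52_P336171) and 0.042 (Gabra3 A_52_P264550), and the E15 change -0.0080 (Gabra3 A_52_P364645) and -0.051 (Gabrb2). On scan days 1 and 2, E15 changes were -0.0075 and -0.038 (Gabra3) and -0.045 (Gabrb2), and on day 3 Gabra5 A_51_P151316 had 0.060. It had 0.018 under median centring. At P1, deposited ratios and processed signals both gave 0.032 (Gabra3 A_52_P364645) and 0.024 (Gabra5 A_52_P143037), the latter at 8.1e-05 without background correction. The difference of Gabra2 A_52_P446146 was 0.015 without that correction and 0.00086 without the block for shared controls.

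With 1 replicate left out, the difference ran from -0.17 to 0.022 (Gabra2 A_52_P336171), -0.044 to 0.065 (A_52_P446146), -0.10 to 0.0018 (Gabra3 A_52_P264550) and -0.21 to 0.027 (Gabra5 A_52_P143037). P1 changes ran from -0.11 to 0.034 (Gabra3 A_52_P364645) and -0.14 to 0.090 (Gabra5 A_52_P143037), and E15 changes from -0.042 to 0.0086 (Gabra5 A_51_P151316), -0.017 to 0.046 (Gabrb2) and -0.032 to 0.14 (Gabrg1). The number of arrays limits the precision.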
